A study of Mus musculus with 3 samples.

Results

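The ligands, receptors and TRAF adaptors of the tumour necrosis factor (TNF) superfamily were described in γδNKT thymocytes with normal, reduced or lost function of PLZF, the transcription factor that gives these innate-like T cells their effector program. A gene belonged to the family when a probe set listed it as its only gene and its symbol began with Tnfrsf or Tnfsf and a digit, or was Cd27, Cd70, Cd40, Fas, Fasl, Lta, Ltb, Ltbr, Eda2r, Traf1, Traf2, Traf3, Traf5 or Traf6. This gave 42 of the 19518 gene symbols measured, each by 1 probe set. Traf3, Tnfsf12 and Tnfsf13 had no probe set of their own and were not analysed here.

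The data were 3 oligonucleotide arrays (Affymetrix Mouse Gene 1.0 ST), 1 each for the genotypes PLZF+/+, PLZF+/lu and PLZFlu/lu, where lu is luxoid, a point mutation of the PLZF gene. The cells came from thymi of female C57Bl/6 mice 3 to 4 weeks old. In all 3 groups the mice lacked Rag1 and carried the Vγ1Vδ6.4 T cell receptor transgenes, as the paper states, so that the thymocytes share a single receptor, and the CD4+CD8− cells were sorted, the second time straight into TRIzol. The sources used here do not give how many animals went into a sample. With 1 array per genotype there is no replicate error and no test was run, so the 2-fold threshold used below selects by size alone. Wherever 3 values stand in a row, they are the probe set intensities of the PLZF+/+ array first, then the PLZF+/lu array, then the PLZFlu/lu array. A log2 difference is that of the outer genotypes, PLZF+/+ minus PLZFlu/lu, unless others are named. A level counts as above background when it exceeds 109, the intensity below which 95% of the values of 1021 olfactory receptor probe sets fell.

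Zbtb16, the gene for PLZF, was at 8796, 6143 and 2890. Because the mutant transcript can also bind its probes, these levels are only a partial check of the labels. All 8 measured T cell markers lay above background on every array, and Cd4 was at 6401, 6208 and 7191. Of markers of other cells, 0 of 5 NK cell genes, 2 of 7 B cell genes and 3 of 11 dendritic cell and macrophage genes were above background on any array. Of thymic epithelial genes 5 of 9 were, with sums of 1724, 1906 and 2117. Ly75 was the 1 of these past 1.5-fold between the outer genotypes, at 784, 933 and 1185, while Foxn1 and Aire were equal on all arrays. Of endothelial and fibroblast genes 4 of 6 were above background, with sums of 3475, 3421 and 3367. The summed intensity of 6 markers of CD4+CD8+ thymocytes was 2267, 3366 and 4265. Most of this sum was Cd8b1, the CD8 beta chain gene, which was at 1290, 2263 and 2958 and was the marker past 2-fold. Cd8a, at 369, 519 and 601, Rag1, at 229, 211 and 278, and Dntt, at 162, 157 and 210, were also highest in PLZFlu/lu. As the mice lacked Rag1, its signal cannot mark these cells here, though it is part of the sum. Ptcra and Rag2 were equal in the outer genotypes. The part of these other cells in the differences between genotypes was not tested. In sorted bulk cells, fewer cells of a type and less RNA per cell cannot be told apart.

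TNF family ligands act as trimers, mostly on the cell surface, and bind receptors with cysteine-rich outer domains. Some receptors hold a death domain and can start apoptosis through caspase-8, while others bind TRAF adaptors and activate NF-κB. In T cells, CD27, OX40, 4-1BB and GITR act as costimulatory receptors. In the thymus, RANKL and lymphotoxins from T cells and innate-like lymphocytes support the growth of medullary epithelium.

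Between PLZF+/+ and PLZFlu/lu cells, 1 of the 42 members differed by more than 2-fold, the OX40 ligand gene Tnfsf4, which was higher in PLZF+/+. Of all symbols, 84 passed that threshold (0.43%), with 53 higher in PLZF+/+ (0.272%) and 31 lower (0.159%). Of the 32 members above background it was 1, against 0.695% of such symbols. Tnfsf4 is among these 32 through the PLZF+/+ array alone, the array on which it was high, so the filtered share adds no support. A count of 1 gene does not place the family above or below these shares. The other 41 members lay between -0.29 and 0.37 on the log2 scale, and the median difference was 0.00, as it was over all symbols. Equal values set this median, since 47.6% of the members and 58.1% of all symbols were equal between these genotypes. Among values that were not equal, the median absolute log2 difference was 0.13 for the members and 0.09 for all symbols, or 0.15 and 0.10 for those above background.

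Tnfsf4 went from 186 (PLZF+/+) through 94.7 (PLZF+/lu) to 65.5 (PLZFlu/lu). With the background level at 109, PLZF+/+ was the array on which Tnfsf4 stood above it. The deposited values of the homozygous genotypes differ by 1.5 on the log2 scale, or 2.83-fold. The PLZF+/+ value was 1.71-fold the background level, which is below 2-fold, and the exact fold between the genotypes is not known. This ratio rests on 1 array and a chosen cutoff, so it is not a lower bound on the difference.

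Of 1621 symbols whose brighter value in these genotypes lay between 148 and 232, around that of Tnfsf4, 3 differed by more than 2-fold as deposited (0.185%). These were Tnfsf4 itself, Mpped2 and Usp44, and 1084 of the 1621 were equal between these genotypes. The range of brightness was chosen after the values were seen and is set by Tnfsf4, so this share is a description and no support for its difference. OX40 ligand is best known from antigen-presenting cells. The markers of dendritic cells and macrophages summed to 1190, 1187 and 1174 on the arrays, 8 of the 11 measured stayed below background, and none differed by more than 1.5-fold between PLZF+/+ and PLZFlu/lu. Of those above background, Itgam was at 164, 152 and 139, while Siglech was at 146 and Cd68 at 386 on all arrays. Of the endothelial and fibroblast markers, Pdgfrb was at 324, 265 and 202, and like Itgam it ran in the same order of genotypes as Tnfsf4. Cdh5 was at 125, 125 and 139, while Pecam1 was at 2643 and Col1a1 at 241 on all arrays. Kdr and Pdgfra stayed below background. Of 7 measured B cell markers, 2 were above background. Cd79b, at 1658, 1440 and 1406, also ran in the order of Tnfsf4, while Blk was at 146 on all arrays. The part of any of these cells was not tested. Tnfrsf4, which encodes the receptor OX40, was at 295, 322 and 294.

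**Figure D1:**
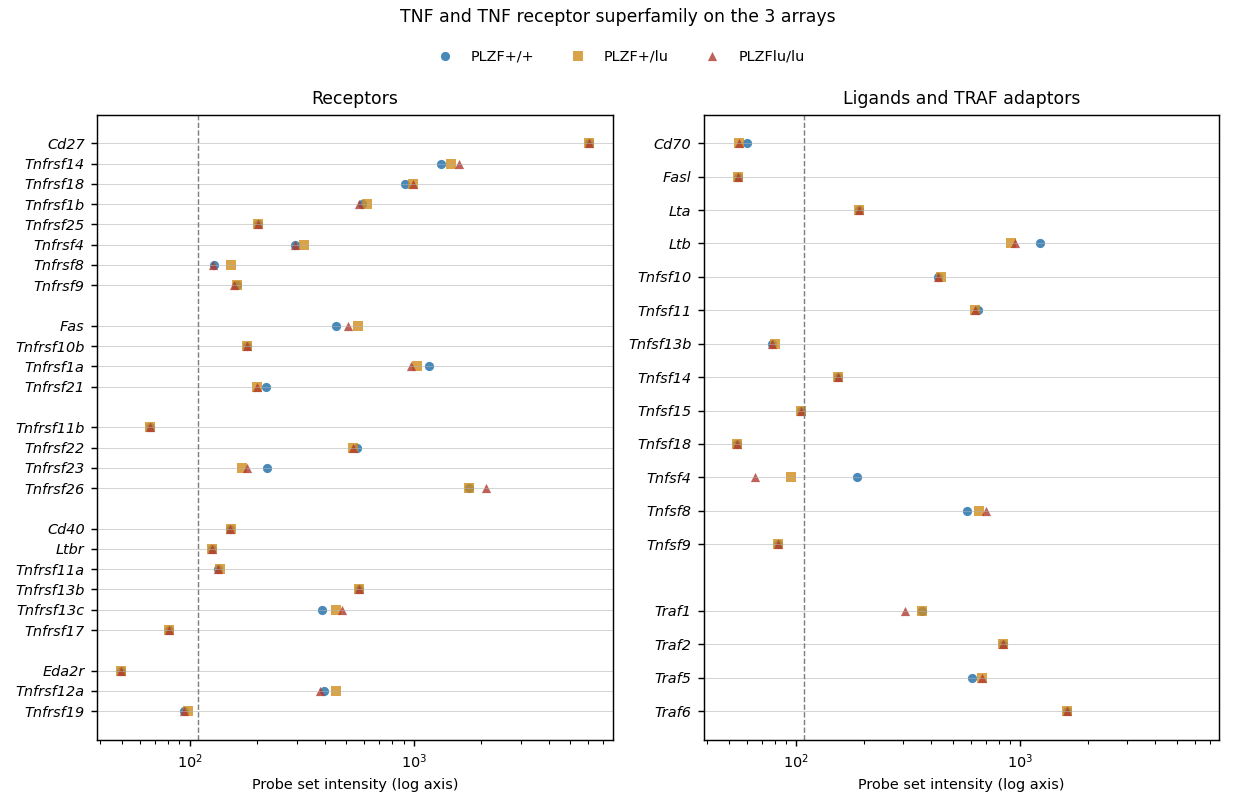
Probe set intensity (log axis) of the 42 family members on the 3 arrays, grouped by role, with circles for PLZF+/+, squares for PLZF+/lu and triangles for PLZFlu/lu; the dashed line is the background level of 109, and there are no error bars because each genotype has 1 array. The symbols of most genes overlap, while those of Tnfsf4 spread from 65.5 to 186 across the line; levels of different genes are not comparable, since probe sets differ.

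A member was taken as above background when its brightest array exceeded 109, and 32 of the 42 were. The 10 others were the ligand genes Cd70, Fasl, Tnfsf9, Tnfsf13b, Tnfsf15 and Tnfsf18 and the receptor genes Tnfrsf11b, Tnfrsf17, Tnfrsf19 and Eda2r. Their intensities ran from 49.3 to 105, and no difference of theirs is described.

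All 8 costimulatory receptors of T cells were above background on every array. Cd27, which sustains thymocyte and memory cell survival, was at 6033, 6033 and 6068. The values of Cd27 thus lay within 0.01 of each other on the log2 scale. Tnfrsf14, which encodes HVEM, the partner of BTLA and LIGHT, was at 1323, 1468 and 1592. PLZF+/lu lay between the others, whose log2 difference was -0.27. Tnfrsf18, the gene for GITR, was at 918, 995 and 995, and Tnfrsf1b, for the TNF receptor TNFR2, at 590, 620 and 570. GITR, OX40 and TNFR2 are also known from regulatory T cells, whose 5 markers were all above background. They summed to 2611, 2089 and 2218, with none past 1.5-fold between the outer genotypes. Most of this sum was Ikzf2, at 1708, 1192 and 1309. Foxp3 was at 189, 191 and 189, Il2ra at 183, 148 and 183, Ctla4 at 141, 168 and 121, and Gpr83 at 390, 390 and 417.

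Tnfrsf8, the CD30 gene, was at 129, 152 and 126, close to background. Tnfrsf9, which encodes 4-1BB, an activation-induced receptor, was at 163, 163 and 158. Tnfrsf25, the gene for the death domain receptor DR3, was at 202 on all 3 arrays. Between PLZF+/+ and PLZFlu/lu the 8 differences ran from -0.27 to 0.05 on the log2 scale, the highest being that of Tnfrsf1b.

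All 4 death receptors were above background. Fas, the receptor that removes activated lymphocytes, was at 447, 565 and 511, highest in the heterozygote. Tnfrsf1a, the main death domain receptor for TNF, was at 1167, 1039 and 975, a log2 difference of 0.26 with PLZF+/lu in between. Tnfrsf21, which encodes DR6, was at 218, 200 and 200, and Tnfrsf10b, the mouse TRAIL receptor, at 180 on all arrays. The differences between the outer genotypes ran from -0.19 to 0.26 and lay on both sides of 0.

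Tnfrsf22, Tnfrsf23 and Tnfrsf26 lie side by side on chromosome 7 in the RefSeq annotation of GRCm38.p6. The first pair encode closely related decoy TRAIL receptors, so probes may not separate them fully. Tnfrsf23 was at 221, 171 and 180, so that PLZF+/+ exceeded PLZFlu/lu by 0.30 on the log2 scale, and Tnfrsf22 at 561, 535 and 535, a difference of 0.07. Tnfrsf26 went the other way, at 1767, 1763 and 2097, a difference of -0.25. Of these neighbours, Tnfrsf22 and Tnfrsf23 were higher in PLZF+/+ and Tnfrsf26 was higher in PLZFlu/lu.

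Among 6 receptors known from B cells and lymphoid tissue, 5 were above background. Tnfrsf13c, the BAFF receptor gene, was at 391, 451 and 476, a log2 difference of -0.29 that was the lowest in the family. Tnfrsf13b, which encodes TACI, was at 570.2 on all 3 arrays, Ltbr at 125 on all arrays, and Cd40 and Tnfrsf11a, the RANK gene, were equal in the outer genotypes and 0.02 higher in PLZF+/lu on the log2 scale. The B cell markers Ms4a1, Cd79a, Pax5, Cr2 and Fcer2a stayed below background on all arrays, while Cd79b was at 1658, 1440 and 1406 and Blk at 146 on all arrays. Tnfrsf12a, the receptor of TWEAK, was at 397, 452 and 383.

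Of 13 measured ligand genes, 7 were above background. Ltb, whose product anchors lymphotoxin to the cell surface, was at 1228, 910 and 949. PLZF+/+ stood above the other genotypes, by a log2 difference of 0.37 from PLZFlu/lu, which is 1.29-fold. Of symbols above background, 5.52% had a larger absolute difference. Tnfsf8, the CD30 ligand gene, was at 580, 656 and 703, a log2 difference of -0.28 with PLZF+/lu in between. Tnfsf11, the gene for RANKL, was at 648, 625 and 625. Tnfsf10, which encodes TRAIL, was at 429, 441 and 429, and Lta and Tnfsf14, the LIGHT gene, were at 191 and 153 on all arrays.

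**Figure D2:**
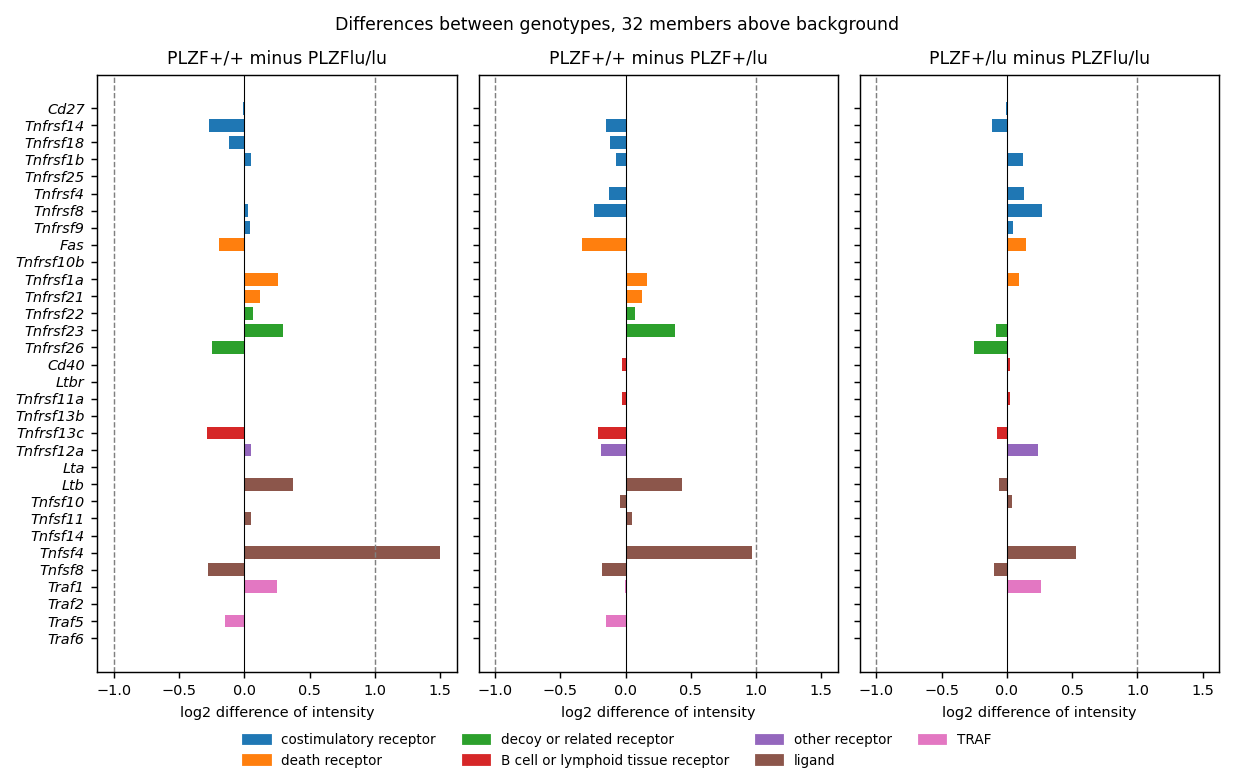
log2 difference of intensity for the 32 members above background in the 3 comparisons of genotypes, coloured by role, with dashed lines at 2-fold; the comparisons share arrays and are not independent. Tnfsf4 is the bar that crosses a line, at 1.5 between PLZF+/+ and PLZFlu/lu, and the next longest bar of that comparison is Ltb at 0.37.

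Ltb is known as a target of NF-κB, so the promoters of the family were searched for the consensus motif of NF-κB. RefSeq promoter windows of GRCm38.p6, from 250 bases before to 50 after the start site, were matched for 34 of the 42 members and read on both strands. The other 8 had no window and were not searched. They are Tnfsf4, the member past 2-fold, and Cd40, Cd70, Tnfsf9, Tnfrsf10b, Tnfrsf11b, Tnfrsf22 and Tnfrsf26. The motif was found in 4 of the 34 (11.8%), Ltb, Tnfrsf8, Tnfrsf9 and Tnfrsf25, and in 9.55% of all 27025 genes with a window. The sites of Ltb, the above-background ligand gene with the second largest difference, and of Tnfrsf9 are shown, with the motif in capitals; in Tnfrsf9 a further match overlaps it, shifted by 1 base.
Ltb: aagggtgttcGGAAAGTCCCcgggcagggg
Tnfrsf9: cagagcagctGGGGATTTCCcaggaggccc
That of Ltb is at chr17:35194410-35194439 and is printed from the plus strand, with the capitals starting 87 bases before the start site. There the motif matches when read on the minus strand. That of Tnfrsf9 is at chr4:150927946-150927975, plus strand, 43 bases before a start site. Between PLZF+/+ and PLZFlu/lu the 4 genes had log2 differences of 0.37 for Ltb, 0.03 for Tnfrsf8, 0.04 for Tnfrsf9 and 0.00 for Tnfrsf25. A match of letters is a description and not a bound site.

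The TRAF adaptors, which carry the signal from the receptors, were all above background. Traf1, an NF-κB-induced member, was at 363, 365 and 304, a log2 difference of 0.25 that separated PLZFlu/lu from the others. Traf5, which serves CD27 and OX40, was at 609, 674 and 674. Traf2, the main adaptor of the TNF receptors, was at 837 on all arrays and Traf6, which also serves IL-1 and Toll-like receptors, at 1615.

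Ligands were next set beside receptors in 21 pairs, listed after the values were seen and including Tnf and Cd40lg, which lie outside the naming rule. The list is not complete, as it leaves out the decoy TRAIL receptor genes Tnfrsf22 and Tnfrsf23. In 12 pairs both genes were above background on at least 1 array, and in 7 the receptor alone was. These 7 include CD27, GITR, 4-1BB and Fas, whose ligand genes Cd70, Tnfsf18, Tnfsf9 and Fasl were below background on every array. No receptor differed by more than 1.5-fold between any genotypes, against 1.43% of all symbols between PLZF+/+ and PLZFlu/lu, 0.794% between PLZF+/+ and PLZF+/lu and 0.533% between PLZF+/lu and PLZFlu/lu. The genes of the family next to Tnfsf4 on chromosome 1, Tnfsf18 and then Fasl, had equal values on all arrays, at 54.3 and 55.0, below background.

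**Figure D3:**
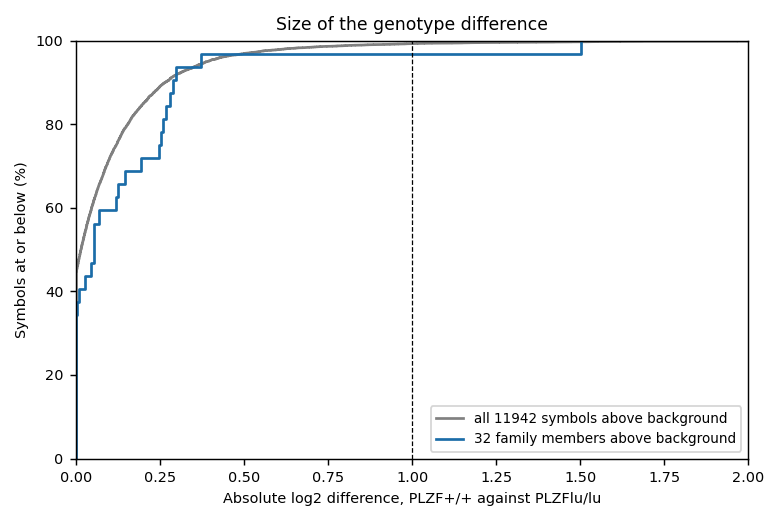
Cumulative share of symbols (vertical axis, percent) by the absolute log2 difference between PLZF+/+ and PLZFlu/lu (horizontal axis), for the 32 family members above background (blue) and all 11942 symbols above background (grey), with a dashed line at 2-fold. At 0 the blue line starts lower, since 34.4% of the members and 44.7% of the symbols had equal values, and Tnfsf4 alone of the members lies right of the dashed line.

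Equal values were frequent in the deposited table. On all 3 arrays 15 of the 42 members (35.7%) were equal within 1e-06 on the log2 scale, against 46.8% of all symbols. The share fell from 69.8% in the dimmest of 5 bins of symbols by mean intensity, to 20.6% in the brightest. The sources used here do not give how the processing led to equal values, so an equal value does not show an equal transcript level.

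Between PLZF+/+ and PLZF+/lu no member differed by more than 2-fold, against 0.133% of all symbols. Tnfsf4 was at least 1.71-fold higher in PLZF+/+, since PLZF+/lu lay below background, and Ltb was higher by 0.43 on the log2 scale. Between PLZF+/lu and PLZFlu/lu no member did either, against 0.123% of all symbols, and the differences ran from -0.25 for Tnfrsf26 to 0.27 for Tnfrsf8, apart from Tnfsf4, for which both arrays lay below background. These comparisons share arrays with the first.

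PLZF+/lu lay strictly between the other genotypes at 5 members, Tnfsf4, Tnfsf8, Tnfrsf1a, Tnfrsf13c and Tnfrsf14 (11.9%, against 11.4% of all symbols). The count was 12 under quantile normalization and 9 with median centring, both of which break equal values, and 4 with a floor at background, where Tnfsf4 drops out. It lay above both at 11 members (26.2%, against 13% of all symbols) and below both at 3 (7.14%, against 11.4% of all symbols). By a margin of more than 0.1 on the log2 scale, chosen after the values were seen, it lay above both at 4 members (9.52%, against 4.57% of all symbols), namely Fas, Tnfrsf4, Tnfrsf8 and Tnfrsf12a. These genes exceeded the other arrays by 0.13 to 0.34. Under quantile normalization Tnfrsf1b joined them. Of the 8 costimulatory receptors, 5 were higher in PLZF+/lu than in PLZF+/+, by 0.07 to 0.24, and 3 were equal. Of these 5, Tnfrsf14 was higher still in PLZFlu/lu and Tnfrsf18 was equal there. Of all symbols, 21.2% were higher in PLZF+/lu to any degree and 55.2% were equal in these 2 genotypes.

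A list of 52 adaptors, NF-κB pathway genes and family members outside the naming rule had 49 measured genes. Ripk1, Chuk and Nfkb1 had no probe set of their own and were not analysed here. Of the 49, 1 passed 2-fold between PLZF+/+ and PLZFlu/lu, Cd40lg, which was higher in PLZF+/+. Of all symbols, 0.43% passed that threshold. Past 1.5-fold there were 3 (6.12%), all higher in PLZF+/+, against 1.43% of all symbols. Its median difference was 0.00 on the log2 scale. Tnf and Cd40lg were known from earlier results of these data, so their counts are no independent evidence.

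Cd40lg, the ligand through which helper T cells activate B cells, was at 2313, 1587 and 960, with PLZF+/lu in between, a 2.41-fold difference between the homozygous genotypes. Tnf was at 170, 124 and 101. Its PLZF+/+ value was 1.56-fold the background level, below which PLZFlu/lu lay. Tnfaip3, which encodes the NF-κB inhibitor A20, was at 1049, 1369 and 695, highest in the heterozygote. Its log2 difference was 0.60 between PLZF+/+ and PLZFlu/lu and 0.98 between PLZF+/lu and PLZFlu/lu, just under 2-fold.

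The rest of the list lay between -0.25 for Traf3ip3 and 0.25 for Map3k5. The NF-κB subunit gene Rela was at 1721, 1551 and 1599, and Relb at 141 on all arrays. Nfkbia, an inhibitor of NF-κB that is itself induced by it, was at 1166, 1077 and 1077. Casp8, the initiator caspase recruited to death receptors, was at 6000, 6420 and 6461. The adaptor gene Tradd, which joins TNFR1 to its complex, was at 599, 519 and 505. Apart from Cd40lg, Tnf and Tnfaip3, no gene of the list differed by more than 1.5-fold in any comparison.

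**Figure D4:**
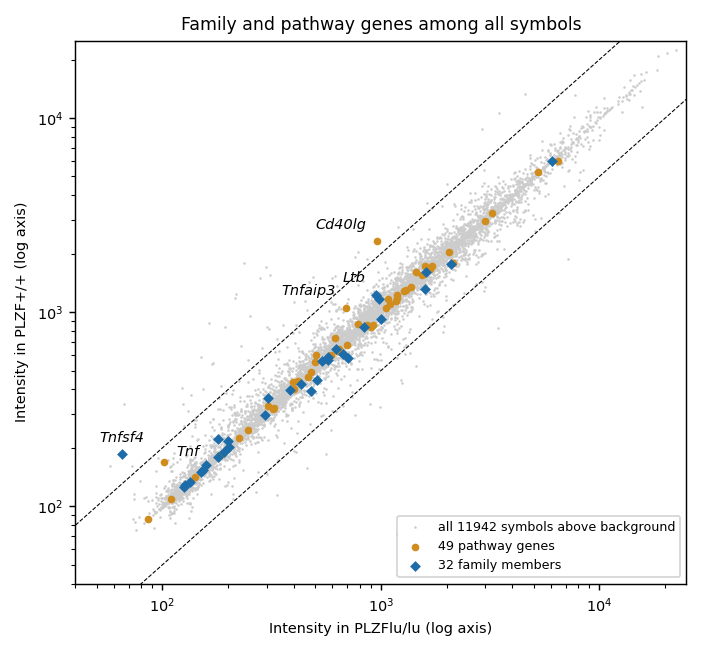
Intensity in PLZF+/+ against PLZFlu/lu cells (log axes) for the 32 family members above background (blue diamonds), the 49 pathway genes (orange circles) and all 11942 symbols above background (grey), with dashed lines at 2-fold. Tnfsf4 and Cd40lg lie above the upper line, and Tnfaip3 and Tnf between it and the other genes.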

How the data were processed

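Total RNA of 3 sorted thymocyte samples was measured on 3 Mouse Gene 1.0 ST arrays (Affymetrix). The authors processed the scans in GenePattern with the modules ExpressionFileCreator, MultiplotPreprocess and Multiplot, removed normalization controls and deposited 1 linear intensity per probe set and array. The submitters' processing notes name the build mm 8. The sources used here do not give the background correction or the summarisation. The array medians were 160.0, 161.8 and 159.7, and 0 value columns lacked a sample.

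Of 24800 probe sets, 21065 list 1 gene, 1187 several and 2548 none. Symbols were updated to the RefSeq table of GRCm38.p6 for 20983, and a gene is given by the probe set with the highest mean log2 value. As mm 8 is not the build of that table, no probe set coordinates are printed. The measure was the log2 difference of intensity between arrays, with more than 2-fold as the rule of size. The number of arrays limits the precision. Groups came from the genotype labels. The members and lists were chosen with earlier results of these data known. Named were the members past 1.5-fold in any comparison and above background, the costimulatory and death receptors, ligands and TRAFs above background, and pathway genes past 1.5-fold. Further receptors and pathway genes were added after their values were seen.

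The alternatives were quantile normalization, median centring, adding 32, a floor at background, the mean over probe sets, the mean of PLZF+/+ and PLZF+/lu, thresholds of 1.5-fold and 3-fold, and members above background. Counting was checked on simulated shifts well past 2-fold, so values near the threshold were not covered. Python 3.11.15, numpy 2.4.6, pandas 2.3.3, matplotlib 3.10.9, R 4.3.3 and limma 3.58.1 were used.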

Additional observations from a re-analysis of the deposited data

How the results depend on the processing

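The count of 1 family member past 2-fold between PLZF+/+ and PLZFlu/lu stayed at 1 under the other alternatives but fell to 0 with a floor at the background level and at a threshold of 3-fold. The log2 difference of Tnfsf4 was 0.77 with the floor, 1.16 with 32 added and 1.02 when PLZF+/+ was replaced by its mean with PLZF+/lu. Between PLZF+/+ and PLZF+/lu the count rose from 0 to 1 at 1.5-fold. The count of 1 pathway gene fell to 0 with that mean and at 3-fold and rose to 3 at 1.5-fold. The 5 members with PLZF+/lu strictly between became 12 under quantile normalization and 9 with median centring, both of which break equal values. The median difference of the family moved by less than 0.05 under each alternative. Of 138 values of the 23 named members under the alternatives, 137 stayed on their side of 2-fold. Tnfsf4 alone had a call that could be lost or reversed, and it was lost with the floor and not reversed. The next largest difference was 0.37, for Ltb, and the mean over probe sets cannot change a member with 1 probe set. The count of 137 is therefore no evidence that the values are stable. No paired analysis was possible because each genotype has 1 array, and no array could be left out.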

Other observations

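A probe set listing Tnfsf12, Tnfsf13 and the fused transcript Tnfsfm13 together, genes for the ligands TWEAK and APRIL, was at 121 on all 3 arrays, just above the background level of 109. It was used in no comparison, since its signal cannot be given to 1 gene.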
